A study of Mus musculus with 16 samples.

Results

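The phase II conjugation enzymes of mouse liver were followed in 3 families, the UDP-glucuronosyltransferases (UGT), the glutathione S-transferases (GST) and the sulfotransferases (SULT). Members were all non-control probes whose gene name on the array began with Ugt1, Ugt2, Ugt3, Gsta, Gstm, Gstp, Gstt, Gstk, Gsto, Gstz, Sult1, Sult2, Sult3 or Sult5. This rule gave 73 of the 56605 probes, under 51 of the 37074 gene names. They comprised 18 UGT probes for 14 genes, 30 GST probes for 20 genes and 25 SULT probes for 17 genes. Liver RNA of 16 male C57BL/6 mice, all conventional (Conv) and fed a normal chow, was hybridized to 1 Agilent microarray per mouse, on which a brighter spot means more of a transcript. The controls (Conv + PBS, 6 mice) received the vehicle, reduced PBS, although their labels call them not transplanted, the Conv + LM mice (5) received caecal microbiota of lean donors (LM, lean microbiota) and the Conv + OM(HFD) mice (5) that of donors made obese with a high-fat diet (OM, obese microbiota). All recipients were 6 weeks old at the start and 10 weeks old at the end, were never given antibiotics and were fasted for some hours before death. The caecal content of several donors was pooled for transfer and recipients were housed in groups, so that neither donor nor cage can be told apart from the group.

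Phase II enzymes attach a water-soluble group to drugs, hormones, bile acids, bilirubin and products of gut bacteria, after which the conjugate is exported into bile or blood. UGT enzymes transfer glucuronic acid from UDP-glucuronic acid, GST enzymes couple reactive electrophiles to glutathione, and SULT enzymes transfer sulfate from the donor PAPS. Hepatocytes are their main site in the body, and many of the genes are known targets of the nuclear receptors PXR and CAR, of the aryl hydrocarbon receptor and of NRF2. Among the products of gut bacteria that reach the liver are p-cresol, which is conjugated there directly, and indole, which is first oxidized to indoxyl in the liver and then sulfated.

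Of the 51 genes, 41 were measured, that is, had a probe that the scanner software called well above background for 5 or more mice. In all 41, the probe with the highest mean, which stood for the gene, was well above background on all 16 arrays. They were 14 of 14 UGT genes, 18 of 20 GST genes and 9 of 17 SULT genes. Values below are log2 brightness relative to the 75th percentile of the array, called the log2 level, and a level is compared between mice and never between genes. Across arrays, that percentile lay between 223 and 324 brightness units and 49.7 to 58.3% of probes were well above background, no probe was saturated, and arrays of the same group correlated at r = 0.976 to 0.992 (Pearson, across genes, which are not independent). All 10 hepatocyte markers were measured, and their summed log2 level was 12.4 to 12.7 in Conv + PBS, 12.4 to 12.6 in Conv + LM and 12.5 to 12.7 in Conv + OM(HFD) mice. Single arrays stood apart in markers of other cell types, Conv + PBS mouse 1 and Conv + OM(HFD) mouse 25 in neutrophil and Kupffer cell markers, Conv + LM mouse 15 in adipocyte markers and Conv + PBS mouse 5 in kidney tubule markers, and the calls without each of them are given with the marker values.

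Few conjugation genes differed between the groups at an unadjusted p under 0.05, and none passed after adjustment. In Conv + OM(HFD) mice, the theta class GST genes Gstt1, Gstt2 and Gstt3, the mu class GST gene Gstm5 and the sulfotransferase gene Sult1b1 were lower than in Conv + PBS mice. In Conv + LM mice, Gstt2 and Gstm5 were lower than in Conv + PBS mice. Between the recipients of lean and obese microbiota, Sult1b1 alone among the members had an unadjusted p under 0.05, with the lower level in Conv + OM(HFD). The p-values measure only the spread between the mice of these groups. No member passed the adjusted threshold of limma, over 20400 genes, in any comparison. The smallest adjusted p of a member was 0.9999 for Conv + OM(HFD) vs. Conv + PBS, 0.997 for Conv + LM vs. Conv + PBS and 0.999 for Conv + OM(HFD) vs. Conv + LM, and no other gene of the array passed it either. The methods' t-test, after the same adjustment, called 0 genes too. Below, a difference is said to pass at an unadjusted limma p under 0.05. At that level, 5 of 41 members passed for Conv + OM(HFD) vs. Conv + PBS, all lower after the transfer, where 3.27% of all genes passed and 1.74% were lower. For Conv + LM vs. Conv + PBS it was 2 of 41, both lower, where 3.95% of all genes passed and 2.23% were lower. For Conv + OM(HFD) vs. Conv + LM it was 1 of 41, lower, where 2.71% of all genes passed and 1.15% were lower. In the same order, the exact permutation test called 7, 3 and 1 members, against 3.22%, 3.99% and 3.09% of all genes, and the methods' t-test 9, 3 and 1, against 3.11%, 3.72% and 3.02%. Both transfers were set against the same 6 control mice, so their differences from the controls are not independent. For no member did the groups separate fully, which they did for 0.24%, 0.279% and 0.466% of all genes in these comparisons.

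The median log2 difference over the 41 members was -0.03 for Conv + OM(HFD) vs. Conv + PBS, -0.06 for Conv + LM vs. Conv + PBS and 0.03 for Conv + OM(HFD) vs. Conv + LM, and -0.00, -0.01 and 0.01 over all genes. In the same order, the 95% interval of limma lay within a log2 difference of 1 either way for 40, 40 and 41 members and within 0.5 for 29, 29 and 30. Sult5a1 was the gene whose interval passed 1, with bounds of -1.25 and 0.05 in the first comparison and -1.06 and 0.24 in the second. A difference of that size, in either direction, was thus not inside the interval of any UGT or GST gene.

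**Figure D1:**
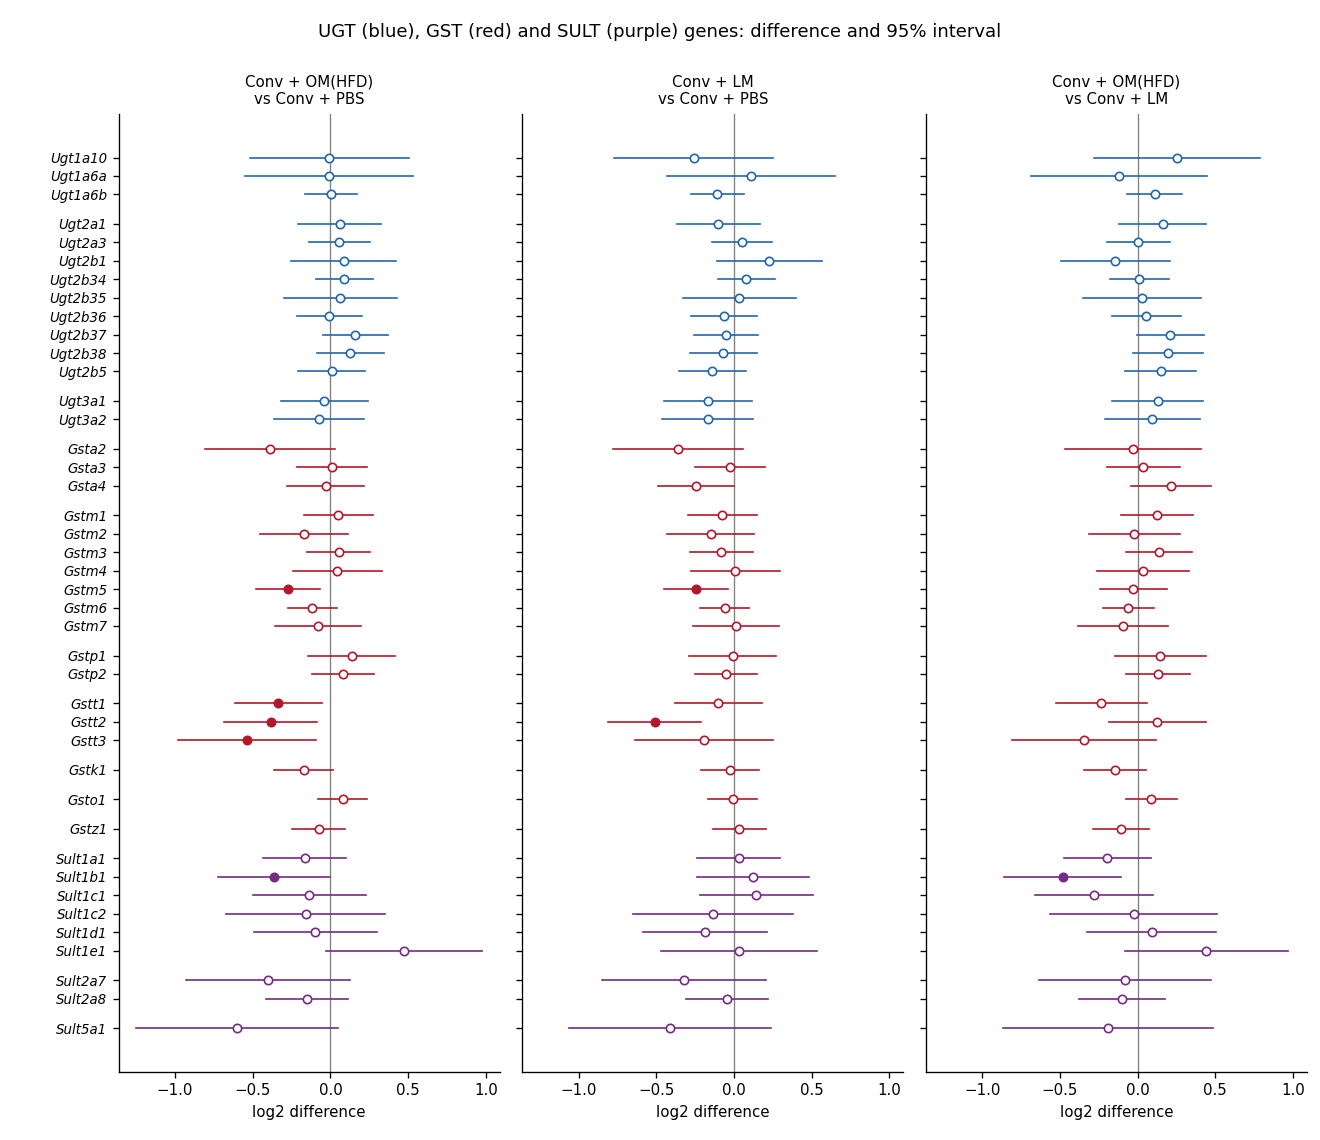
Log2 difference (x axis) of the 41 measured UGT, GST and SULT genes (y axis) in the 3 comparisons, with the 95% interval of limma as a line. Filled points have an unadjusted p under 0.05, 5 in Conv + OM(HFD) vs. Conv + PBS, 2 in Conv + LM vs. Conv + PBS and 1 in Conv + OM(HFD) vs. Conv + LM, and all 8 lie below 0.

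The theta class, Gstt1 to Gstt4, conjugates small molecules such as halogenated alkanes, and its genes lie side by side. On mm9, the probes of Gstt3, Gstt1 and Gstt2 that stood for the genes spanned 58.3 kb of chromosome 10, from 75236966 to 75295265, with the Gstt4 probe between them at 75277786. The first 30 bases of the 60-base theta probes, given to show what was hybridized, were:
Gstt3, chr10:75236966-75237025: gttgcttggtatgtcctgactttccaaatt
Gstt1, chr10:75246560-75246619: actataatcactactttccccttgagtctg
Gstt2, chr10:75295206-75295265: cggaacagagatagaatggtcctggttctg
Gstt2, other probe, chr10:75295913-75295972: ggttctcccattagagtctagtgtcagaga
Gstt4 was well above background in no mouse. For Conv + OM(HFD) vs. Conv + PBS, all 3 measured theta genes passed in the lower direction, with a median log2 difference of -0.38, beside -0.08 over the 18 GST genes. In Conv + LM mice the median of the 3 was -0.19.

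Gstt1, the member of the class best known for its gene deletion in humans, had log2 levels of 6.12, 6.92, 6.49, 6.51 and 6.72 in Conv + OM(HFD) mice 25, 26, 28, 29 and 30. Levels were 6.82, 6.61, 7.06, 6.68 and 6.76 in Conv + LM mice 13 to 17, and from 6.63 to 7.08 with a median of 6.93 in Conv + PBS mice. Of the Conv + OM(HFD) mice, 3 lay below every control, and mice 26 and 30 lay among them. The mean was 6.55 ± 0.30 (SD, n = 5) against 6.88 ± 0.17 (n = 6), a log2 difference of -0.33 ± 0.13 (SE; limma p = 0.0222; exact permutation p = 0.0455), or 0.793-fold. Against the controls, the Conv + LM mice differed by -0.10 (95% interval -0.38 to 0.18).

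Gstt3, the nearest gene to Gstt1, showed the largest difference of the class. Its log2 levels were 2.61, 3.39, 2.65, 2.75 and 3.24 in the Conv + OM(HFD) mice, in the same order, and 3.08 to 3.61 (median 3.53) in Conv + PBS mice. Mice 25, 28 and 29 again lay below every control. The log2 difference was -0.54 ± 0.21 (limma p = 0.0206; exact permutation p = 0.0195), or 0.689-fold. Conv + LM mice were at 3.60, 2.88, 4.00, 2.95 and 2.94, with both the highest level of all 16 mice (mouse 15) and 3 of 5 below every control, and differed from Conv + PBS by -0.19 (95% interval -0.63 to 0.25).

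Gstt2 was lower after both transfers. It had log2 levels of 3.07, 3.49, 2.96, 3.48 and 3.33 in Conv + OM(HFD), 3.38, 3.51, 2.99, 2.71 and 3.11 in Conv + LM, and 3.47 to 3.80 (median 3.67) in Conv + PBS mice. Only Conv + OM(HFD) mice 26 and 29 and Conv + LM mouse 14 reached the range of the controls. The log2 difference from Conv + PBS was -0.51 ± 0.14 for Conv + LM (limma p = 0.00239; exact permutation p = 0.00433), the smallest p of any member, and -0.38 ± 0.14 for Conv + OM(HFD) (limma p = 0.0152; exact permutation p = 0.00866). The array annotation lists 3 RefSeq transcripts for the probe behind these values, all of Gstt2, and 0 for the other probe named Gstt2, further along the chromosome. That other probe differed by 0.20 for Conv + OM(HFD) (exact permutation p = 0.589) and -0.06 for Conv + LM (exact permutation p = 0.89). With the mean of both probes, the difference was -0.09 for Conv + OM(HFD) and -0.28 for Conv + LM, and neither passed.

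**Figure D2:**
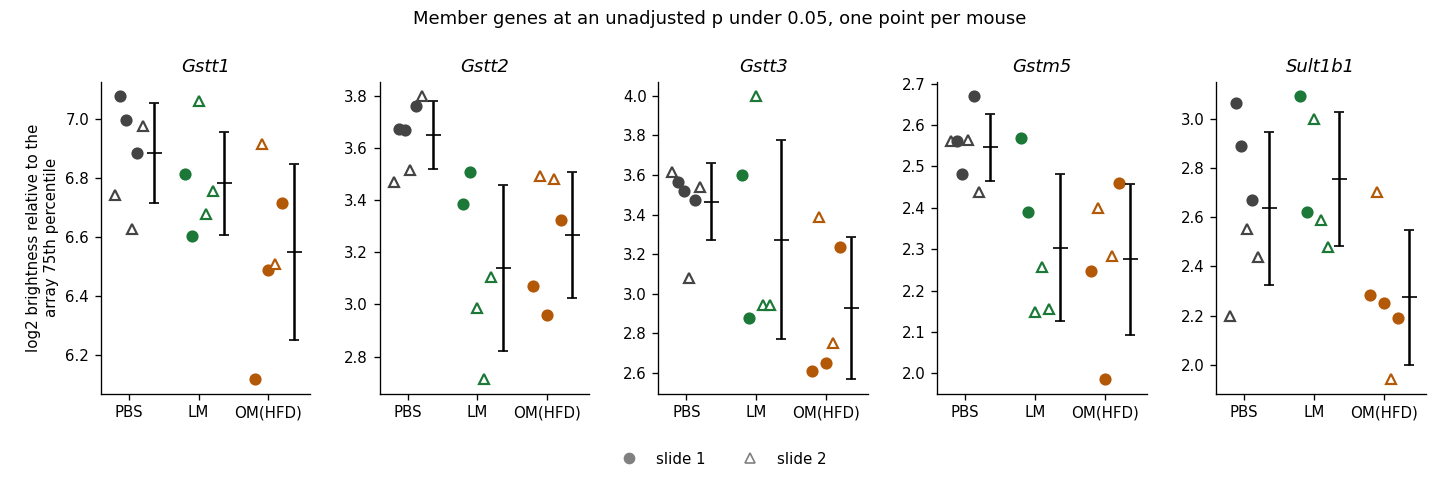
Log2 level (y axis, relative to the array's 75th percentile) of the 5 genes with an unadjusted p under 0.05 in any comparison, by group (x axis), with 1 point per mouse, filled circles for slide 1 and open triangles for slide 2, and the mean ± SD beside them. In Gstt1 and Gstt3, 3 of 5 Conv + OM(HFD) mice lie below every control, and in no panel do 2 groups separate fully.

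The arrays lay on 2 slides, each with mice of all 3 groups. The Gstt1 difference of Conv + OM(HFD) vs. Conv + PBS was -0.54 on slide 1 (3 mice of each group) and -0.07 on slide 2 (2 and 3 mice). For Gstt2 these were -0.58 and -0.11, and for Gstt3 -0.69 and -0.34. Every difference kept its sign on both slides, while the difference between slides was not tested. With the slide as a block, the log2 differences were -0.33, -0.39 and -0.53, and all 3 passed. Without Conv + OM(HFD) mouse 25, Gstt1 (-0.23) and Gstt3 (-0.46) no longer passed, and without mouse 28, Gstt2 (-0.31) and Gstt3 (-0.47) did not. Gstt2 in Conv + LM mice differed by -0.26 on slide 1 and -0.66 on slide 2, and passed without any 1 mouse.

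Around the theta genes, 11 other measured names lay within 150 kb of their probes. None of the 11 had a limma p under 0.05 for Conv + OM(HFD) vs. Conv + PBS. Their median log2 difference was -0.09, with 9 of 11 lower, and the lowest were Derl3 (-0.39) and Vpreb3 (-0.36). Ddt, a neighbour of Gstt3, differed by -0.07 and Mif by -0.11. For Conv + LM vs. Conv + PBS, Mif (-0.22) and the transcript ENSMUST00000121822 beside it (-0.22) were lower at an unadjusted p under 0.05. There the median of the 11 was -0.20, with 8 of 11 lower, beside -0.19 over the 3 theta genes, and they ran from -0.43 (Vpreb3) to 1.05 (Derl3).

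**Figure D3:**
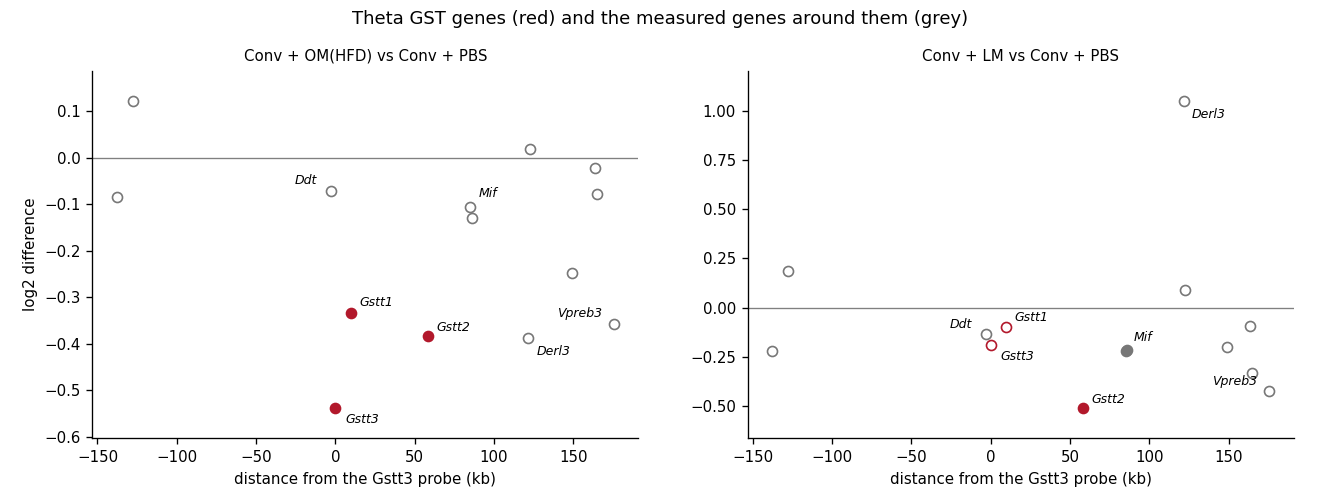
Log2 difference (y axis) of the theta GST genes (red) and of 11 measured names within 150 kb of any of them (grey) against distance from the Gstt3 probe in kb (x axis), for Conv + OM(HFD) and for Conv + LM vs. Conv + PBS mice. Filled points have an unadjusted p under 0.05, which holds for the 3 theta genes and for none of their neighbours in the left panel.

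The mu class was represented by Gstm1 to Gstm7, of which 6 had their probes together on chromosome 3, between 107701511 and 107846847 on mm9. The brightest Gstm1 probe was placed on chromosome 5 by the array design, and the other one on chromosome 3. Only Gstm5 passed. Its log2 levels were 2.25, 2.40, 1.99, 2.28 and 2.46 in Conv + OM(HFD), 2.57, 2.39, 2.15, 2.26 and 2.16 in Conv + LM, and 2.44 to 2.67 (median 2.56) in Conv + PBS mice. In each transferred group, 4 of 5 mice lay below every control. The log2 difference from Conv + PBS was -0.27 ± 0.10 for Conv + OM(HFD) (limma p = 0.0135; exact permutation p = 0.00433) and -0.24 ± 0.10 for Conv + LM (limma p = 0.0245; exact permutation p = 0.0238), and the interval of the difference between the transferred groups was -0.24 to 0.19. The other Gstm5 probe gave -0.27 (limma p = 0.018; exact permutation p = 0.0152) and -0.20 (limma p = 0.0789; exact permutation p = 0.0541). Within slides 1 and 2, the differences were -0.34 and -0.18 for Conv + OM(HFD) and -0.09 and -0.33 for Conv + LM. In limma, the Conv + LM difference no longer passed without Conv + PBS mouse 5 (-0.22), Conv + LM mouse 15 (-0.20) or Conv + LM mouse 17 (-0.21).

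Against Conv + PBS, the other 6 mu genes differed by -0.17 (Gstm2) to 0.05 (Gstm3) in Conv + OM(HFD) and by -0.15 (Gstm2) to 0.01 (Gstm7) in Conv + LM mice. Gstm1 and Gstm3, abundant detoxifying GSTs of mouse liver, differed by 0.05 and 0.05 after the obese and by -0.08 and -0.08 after the lean microbiota. By the probe that stood for the gene, Gstm6 had the smallest spread of all members, with all 16 mice between 4.98 and 5.28. The other Gstm6 probe, also well above background on all 16 arrays, ran from 2.24 to 3.02, with Conv + LM mouse 14 the highest. Conv + LM mouse 14 stood high in Gstm4, at 3.66 against 2.73 to 3.14 in the rest of its group, and in Gstm7, at 1.16 against 0.36 to 0.70.

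Of the alpha class, which handles products of lipid peroxidation, Gsta2, Gsta3 and Gsta4 were measured, and no probe carried the name Gsta1. Gsta2 had log2 levels of 3.28, 3.48, 3.39, 3.21 and 3.61 in Conv + OM(HFD), 3.21, 4.29, 3.56, 2.73 and 3.33 in Conv + LM, and 3.59 to 3.97 (median 3.77) in Conv + PBS mice. All but mouse 30 of the Conv + OM(HFD) group lay below every control, while the Conv + LM mice spread from the lowest to the highest level of all. The log2 difference for Conv + OM(HFD) vs. Conv + PBS was -0.39 ± 0.20, which missed the threshold in limma (p = 0.0667) and not in the exact permutation test (p = 0.00649). The pooled spread of the 3 groups, used by limma, includes that of the Conv + LM mice (SD 0.57 against 0.15 and 0.16). Gsta3, by contrast, lay between 8.66 and 9.17 in all mice by the probe that stood for it, with differences of 0.01 and -0.03 from the controls. Of its other probes, the one at 21255043 of chromosome 1 gave -0.07 and -0.07. The one at 21246334, listed for 0 RefSeq transcripts, gave -0.24 and -0.27 and ran from -0.55 to 1.54. Gsta4, which conjugates 4-hydroxynonenal, differed by -0.03 in Conv + OM(HFD) and by -0.24 in Conv + LM mice (95% interval -0.49 to 0.00; limma p = 0.0525; exact permutation p = 0.026).

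The remaining GST classes had 1 or 2 measured genes each. The pi class genes Gstp1 and Gstp2, much expressed in male mouse liver, differed from Conv + PBS by 0.14 and 0.08 in Conv + OM(HFD) and by -0.01 and -0.05 in Conv + LM mice, and the Gstp1 probe is listed for both genes. Gstk1, of the mitochondrial and peroxisomal kappa class, had log2 levels of 4.95 to 5.07 in Conv + OM(HFD) and 5.01 to 5.35 in Conv + PBS mice, a difference of -0.17 ± 0.09 (limma p = 0.0723; exact permutation p = 0.0152). Gstz1, an enzyme of tyrosine breakdown, and Gsto1, a thioltransferase, differed by -0.07 and 0.08 in Conv + OM(HFD) and by 0.03 and -0.01 in Conv + LM mice, and their intervals stayed within 0.25 either way for both comparisons. Neither Gsto2 probe was well above background in any mouse.

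Among the sulfotransferases, Sult1b1, which sulfates phenols and thyroid hormones, was lowest in Conv + OM(HFD) mice, at 2.29, 2.70, 2.25, 1.94 and 2.19. Conv + LM mice were at 3.10, 2.62, 2.9996, 2.59 and 2.48, and Conv + PBS mice at 2.20 to 3.07 (median 2.61). Only mouse 26 of the Conv + OM(HFD) group reached the Conv + LM range. The log2 difference for Conv + OM(HFD) vs. Conv + LM was -0.48 ± 0.18 (limma p = 0.0148; exact permutation p = 0.0317), or 0.715-fold, and it was -0.62 on slide 1 and -0.37 on slide 2. Against Conv + PBS it was -0.36 ± 0.17 (limma p = 0.048; exact permutation p = 0.0823), with -0.63 on slide 1 and -0.08 on slide 2. The difference from Conv + LM passed without any 1 mouse, whereas that from Conv + PBS no longer passed in 10 of 16 fits that each left out 1 mouse (Conv + PBS 2, 3, 4 or 5, Conv + LM 14 or 16, Conv + OM(HFD) 25, 28, 29 or 30). Its lowest size was -0.28, without Conv + PBS mouse 2 or Conv + OM(HFD) mouse 29. The other Sult1b1 probe gave -0.41 against Conv + LM (limma p = 0.106; exact permutation p = 0.159) and -0.44 against Conv + PBS (limma p = 0.0745; exact permutation p = 0.136).

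No other SULT gene passed. Sult1a1, the main phenol sulfotransferase of liver, differed from Conv + PBS by -0.17 (95% interval -0.43 to 0.10) in Conv + OM(HFD) and by 0.03 (95% interval -0.24 to 0.30) in Conv + LM mice. Sult1d1, which sulfates catecholamines, differed by -0.10 and -0.19, Sult1c2 by -0.16 and -0.14, and Sult1c1 by -0.14 and 0.14. Sult1e1, the oestrogen sulfotransferase, was the member with the largest positive difference. Its log2 levels were -1.76, -2.18, -1.98, -2.74 and -1.25 in Conv + OM(HFD) and -2.74 to -1.71 (median -2.60) in Conv + PBS mice, a difference of 0.47 (95% interval -0.03 to 0.98; limma p = 0.0623; exact permutation p = 0.126). The groups overlapped: Conv + PBS mouse 5, at -1.71, lay above all Conv + OM(HFD) mice but mouse 30, and Conv + OM(HFD) mouse 29, at -2.74, lay at the bottom of the control range.

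Sult5a1 had the largest difference of all members in size and also the widest spread. Its levels were 0.30, 1.11, 0.34, 1.22 and 0.72 in Conv + OM(HFD), 1.36, 0.10, 1.09, 0.29 and 1.80 in Conv + LM, and 0.88 to 1.98 (median 1.28) in Conv + PBS mice. Conv + LM mice 14 and 16 and Conv + OM(HFD) mice 25, 28 and 30 lay below every control, and the others lay among them. The log2 difference was -0.60 for Conv + OM(HFD) (95% interval -1.25 to 0.05; limma p = 0.0665; exact permutation p = 0.0563) and -0.41 for Conv + LM (95% interval -1.06 to 0.24), and its other measured probe gave -0.54 and -0.51. Of the SULT2 genes, which sulfate steroids and bile acids, Sult2a7 and Sult2a8 were measured. Sult2a8 differed by -0.15 and -0.05, and Sult2a7 by -0.40 (limma p = 0.126; exact permutation p = 0.0476) and -0.32 (limma p = 0.215).

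The other SULT2 and SULT3 genes were near or below the detection limit. Sult2a2, Sult2a4 and both Sult3a1 probes were well above background in no mouse. Sult2a1 was so on 1 array (Conv + OM(HFD) mouse 25), Sult2a5 on 1, Sult2b1 on 1 and Sult2a3 on 2, and 1 of 3 Sult2a6 probes on 1. Sult2a1 and Sult3a1 are known as female-predominant genes of mouse liver, and all mice here were male. Of the 11 SULT2 probes, 5 are listed for more than 1 gene, and their calls cannot be assigned to a single gene.

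No UGT gene had an unadjusted p under 0.05 in any comparison. UGT genes are known for shared architecture: all UGT1 isoforms use the same last exons, spliced to first exons of their own. The Ugt1a6b probe that stood for the gene, at 90115493 to 90115552 of chromosome 1 on mm9, is listed for 4 UGT1 genes, and the Ugt1a6a probe, at 90116514, for 4 as well. The first had log2 levels of 7.51 to 7.94 in all mice, with differences from Conv + PBS of 0.00 (95% interval -0.17 to 0.17) in Conv + OM(HFD) and -0.11 (95% interval -0.28 to 0.06) in Conv + LM mice. Of the Ugt1a6b probes listed for that gene alone, the one at 90004249 gave -0.00 and 0.16 and the one at 90114900 gave -0.07 and -0.02. The Ugt1a6a probe lay between -2.81 and -1.17, and Ugt1a10, whose probe is also listed for Ugt1a9, between -1.04 and 0.54, both with the widest ranges in Conv + LM mice. No probe carried the name Ugt1a1, the bilirubin glucuronosyltransferase, although the Ugt1a6a probe is listed for it.

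The 9 UGT2 genes, which glucuronidate steroids, bile acids and many drugs, had their probes together on chromosome 5, from 87318849 to 87889527 on mm9. For Conv + OM(HFD) vs. Conv + PBS, 8 of 9 were higher, with a median log2 difference of 0.06 a lowest of -0.01 (Ugt2b36) and a highest of 0.16 (Ugt2b37). Ugt2a1, Ugt2a3, Ugt2b34 and Ugt2b35 lay between these, at 0.06, 0.06, 0.09 and 0.06. For Conv + LM vs. Conv + PBS, 4 of 9 were higher, with a median of -0.05, a lowest of -0.14 (Ugt2b5) and a highest of 0.23 (Ugt2b1, known as a male-predominant gene). The intervals of the 9 genes lay between -0.30 and 0.43 in the first comparison and between -0.37 and 0.56 in the second. Set against Conv + LM, 8 of 9 were higher in Conv + OM(HFD) mice, with Ugt2b37 at 0.21 (95% interval -0.01 to 0.43; limma p = 0.057; exact permutation p = 0.0794) and Ugt2b38 at 0.20 (95% interval -0.03 to 0.42; limma p = 0.0806; exact permutation p = 0.103). These genes are close copies, and the Ugt2b36 probe is listed for Ugt2b37 too. Ugt2b37 had log2 levels of 5.08, 5.37, 5.55, 5.61 and 5.43 in Conv + OM(HFD), 5.14, 5.08, 5.30, 5.14 and 5.32 in Conv + LM, and 5.08 to 5.42 (median 5.24) in Conv + PBS mice, so that mouse 25 lay at the bottom of the range and the other 4 Conv + OM(HFD) mice above every Conv + LM mouse. With the slide as a block, Ugt2b37 and Ugt2b38 passed and brought the calls in this comparison to 3, where 4.30% of all genes passed, and Gsta2 brought those of Conv + OM(HFD) vs. Conv + PBS to 6, where 3.41% of all genes passed.

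Ugt3a1 and Ugt3a2, which use N-acetylglucosamine or other sugars in place of glucuronic acid, differed from Conv + PBS by -0.04 and -0.07 in Conv + OM(HFD) and by -0.17 and -0.17 in Conv + LM mice. In both genes, Conv + LM mice 13 and 14 lay below all other mice, at 4.83 and 4.61 for Ugt3a1 and 5.51 and 5.41 for Ugt3a2. The other measured Ugt3a2 probe did not show this, with Conv + PBS mice 5 (-0.80) and 2 (-0.67) lowest. Its differences from Conv + PBS were 0.17 in Conv + OM(HFD), opposite in sign, and -0.02 in Conv + LM mice.

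Beyond the level, the families differed in how much mice of the same group varied. The pooled within-group SD of the log2 level had a median of 0.18 over the 14 UGT genes, 0.18 over the 18 GST genes and 0.32 over the 9 SULT genes, against 0.21 over all 17028 genes above background on all arrays. These SDs are given without a test, since genes of a family are not independent. The widest were Sult5a1 (0.54), Ugt1a6a (0.45), Sult2a7 (0.44), Sult1c2 (0.42), Ugt1a10 (0.42) and Sult1e1 (0.41). Sult5a1 spanned 3.66-fold and Sult1e1 3.09-fold over all mice. At the other end, Gstm6 (0.10), Gsto1 (0.10), Ugt1a6b (0.11) and Gstz1 (0.11) varied little, and Gstm6 spanned 1.23-fold. These values hold for the probe that stood for each gene, and the other Gstm6 probe varied more. The SD was larger in dim probes: of members with a mean log2 level over 5, 21 in number, the median SD was 0.15 against 0.14 for all genes of such brightness, and of the 8 with a mean under 1 it was 0.42 against 0.26.

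**Figure D4:**
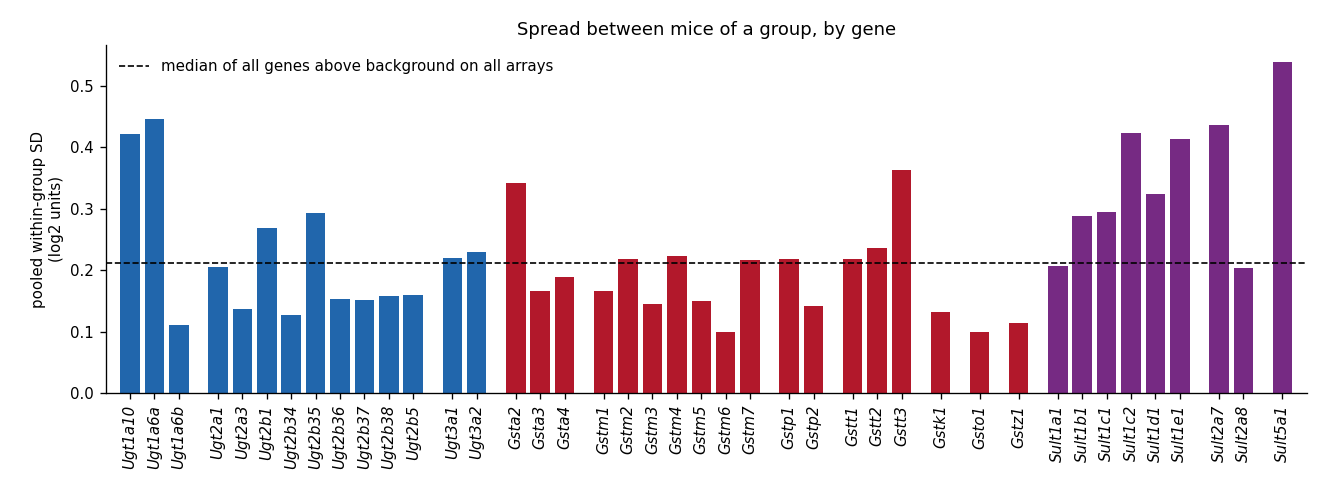
Pooled within-group SD of the log2 level (y axis) of the 41 measured genes (x axis, ordered by family, UGT in blue, GST in red and SULT in purple). The dashed line is the median of all genes above background on all arrays, 0.21, which 7 of 9 SULT genes exceed.

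No relation between the family means across mice passed a test. The mean log2 level of the 14 UGT genes lay between 4.12 and 4.43 in Conv + PBS, 4.15 and 4.30 in Conv + LM and 4.16 and 4.40 in Conv + OM(HFD) mice, that of the 18 GST genes between 5.18 and 5.33, 5.003 and 5.27, and 5.02 and 5.22, and that of the 9 SULT genes between 1.89 and 2.17, 1.83 and 2.04, and 1.62 and 1.97, so that the groups overlapped in each family. After each mouse was set relative to the mean of its group, UGT and GST means had r = -0.15 (Pearson; permutation p = 0.549) and rho = -0.19 (Spearman; permutation p = 0.462) over 16 mice. For UGT and SULT means r was -0.15 (permutation p = 0.617) and rho -0.16 (permutation p = 0.589), and for GST and SULT means 0.20 (permutation p = 0.46) and 0.19 (permutation p = 0.453). Adjusted over the 3 relations, the p-values were 0.617 for r and 0.589 for rho in each case. On slides 1 and 2 alone, r was -0.56 and 0.03, 0.76 and -0.43, and -0.02 and 0.68 for these pairs. Without the pair of mice farthest from the median of the first family it was -0.29, 0.00369 and 0.19.

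The families were also set against Arntl, a core clock gene whose level spanned a wide range within each group (from -2.89 to -0.35 in Conv + PBS, -3.28 to -0.24 in Conv + LM and -2.83 to 0.18 in Conv + OM(HFD) mice). In a fit of each gene on its deviation of Arntl from the group mean, 8.41% of the other 20399 genes had an adjusted limma p under 0.05. At an unadjusted p, it was 23.9% of genes and 6 of 41 members. The only member past the adjusted threshold was Sult1d1, with a slope of 0.21 ± 0.06 per log2 unit of Arntl (adjusted limma p = 0.0476, r = 0.69, permutation p = 0.0068, rho = 0.63, permutation p = 0.0172). Its r was 0.95 on slide 1 and 0.35 on slide 2, and 0.52 (permutation p = 0.0881) without Conv + LM mouse 13 and Conv + OM(HFD) mouse 30, so the relation rests in part on those mice. Next came Ugt1a6a, with a slope of -0.28 (limma adjusted p = 0.0643, r = -0.66, permutation p = 0.0115, rho = -0.62, permutation p = 0.0189), whose r was -0.71 and -0.39 on the slides and -0.60 without these mice. For Sult1c2 the slope was -0.25 (limma adjusted p = 0.0825, r = -0.63, permutation p = 0.0181, rho = -0.67, permutation p = 0.00896), with r = -0.56 and -0.46 on the slides and -0.60 without these mice. With Arntl as a covariate, the 5 genes of Conv + OM(HFD) vs. Conv + PBS and the 2 of Conv + LM vs. Conv + PBS all passed again. That covariate was the deviation from the group mean, so it could not change a log2 difference between groups, only the spread around it. Differences between the groups in Arntl itself were not adjusted for.

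**Figure D5:**
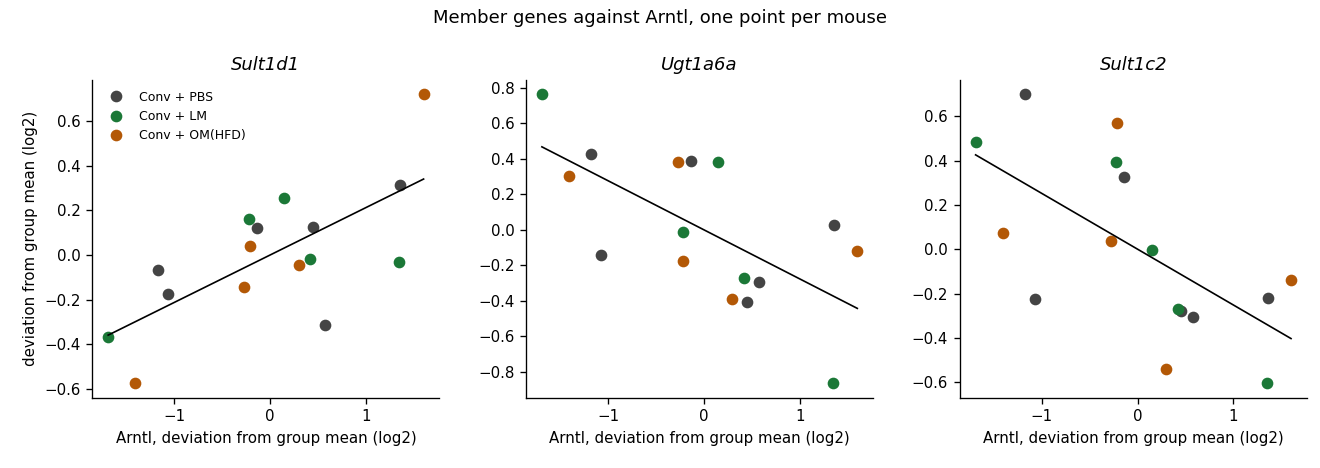
Deviation of the log2 level from the group mean (y axis) for Sult1d1, Ugt1a6a and Sult1c2 against that of Arntl (x axis), with 1 point per mouse coloured by group and the limma slope as a line. The slopes are 0.21, -0.28 and -0.25.

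Few genes that serve the same pathway passed either. Of 15 genes of co-substrate synthesis (UDP-glucuronic acid, PAPS and glutathione), 14 were measured and none had an unadjusted limma p under 0.05 in any comparison. Their median log2 difference from Conv + PBS was 0.04 in Conv + OM(HFD) and 0.02 in Conv + LM mice. The 4 deconjugating enzymes, among them β-glucuronidase (Gusb), likewise had none. Of 19 measured conjugating enzymes outside the 3 families, only Inmt, an amine N-methyltransferase, passed (Conv + OM(HFD) vs. Conv + PBS, -0.32, limma p = 0.0428, exact permutation p = 0.0606). Of 7 export pumps, Abcb1a, a P-glycoprotein gene, was lower than in Conv + PBS in both Conv + OM(HFD) (-0.48, exact permutation p = 0.0346) and Conv + LM mice (-0.41, exact permutation p = 0.0584). Of 17 measured regulators, 2 passed for Conv + OM(HFD) vs. Conv + PBS: Nr1i2, the gene of PXR, was higher (0.24, exact permutation p = 0.0498) and Nfe2l2, the gene of NRF2, lower (-0.24, exact permutation p = 0.0303). None of these had an adjusted p under 0.05.

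Promoter sequence was set beside these values for the genes that passed. RefSeq promoters of GRCm38.p6 were found for 36 of the 41 genes (45 windows), and the 250 bases before each start were searched on both strands for TGACNNNGC, the core of the antioxidant response element bound by NRF2, for GCGTG, the core of the element bound by the aryl hydrocarbon receptor, and for CACGTG, the E-box bound by clock proteins. TGACNNNGC occurred in 3 of 45 windows (6.67%) and in 10.2% of all 32851 windows, GCGTG in 7 (15.6%) and in 28.2%, and CACGTG in none and in 6.02%. The windows below show where the letters lie in the genes with lower levels, with matches in capitals:
Gstt3, downstream one of 2 starts, minus strand, chr10:75781415-75781664: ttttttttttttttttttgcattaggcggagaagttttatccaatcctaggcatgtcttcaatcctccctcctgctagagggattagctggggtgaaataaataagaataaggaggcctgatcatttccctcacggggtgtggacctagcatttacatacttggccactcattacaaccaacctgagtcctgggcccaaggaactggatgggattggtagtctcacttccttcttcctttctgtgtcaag
Gstt1, minus strand, chr10:75797732-75797981: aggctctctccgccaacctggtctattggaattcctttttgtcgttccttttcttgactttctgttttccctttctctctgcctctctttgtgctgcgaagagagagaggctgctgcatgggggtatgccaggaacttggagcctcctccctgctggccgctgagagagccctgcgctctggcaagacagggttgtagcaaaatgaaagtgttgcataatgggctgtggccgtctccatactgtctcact
Gstm5, plus strand, chr3:107895604-107895853: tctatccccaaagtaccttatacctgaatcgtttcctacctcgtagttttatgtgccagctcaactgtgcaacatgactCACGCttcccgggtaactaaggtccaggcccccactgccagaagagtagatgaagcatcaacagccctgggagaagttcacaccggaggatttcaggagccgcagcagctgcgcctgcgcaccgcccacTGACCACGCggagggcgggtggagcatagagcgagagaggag
Sult1b1, downstream one of 2 starts, minus strand, chr5:87536223-87536472: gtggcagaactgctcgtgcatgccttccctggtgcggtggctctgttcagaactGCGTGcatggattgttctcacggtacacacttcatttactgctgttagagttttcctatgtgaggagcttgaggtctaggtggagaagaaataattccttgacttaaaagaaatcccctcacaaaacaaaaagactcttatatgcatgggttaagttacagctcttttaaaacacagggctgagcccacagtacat
Gstt1 and Gstt3 held none of the 3 motifs. In Gstm5, TGACNNNGC lay 42 to 34 bases before the start and overlapped a GCGTG on the other strand, and a further GCGTG lay 171 to 167 bases before it. Sult1b1 held 1 GCGTG, 196 to 192 bases before the start printed here, and the window of its other start held none of the 3 motifs. No window was listed for Gstt2.

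Since whole liver was measured, fewer cells of a type and less RNA per cell cannot be told apart. Markers of cell types other than hepatocytes also differed at an unadjusted limma p under 0.05 beside the lower theta genes of Conv + OM(HFD) vs. Conv + PBS mice: 2 of 6 stellate cell markers (Lrat, -0.63, and Dcn, -0.26), 1 of 6 endothelial (Clec4g, -0.48), 1 of 6 measured bile duct (Cftr, -0.76) and 1 of 4 measured B and T cell markers (Cd3g, -0.46), all lower. The other markers of these lists lay on both sides of 0. Over the measured markers, 3 of 6 were lower and 3 higher for the stellate list (median log2 difference -0.05), 4 lower and 2 higher for the endothelial list (-0.17), 4 lower and 2 higher for the bile duct list (-0.13), and 3 lower and 1 higher for the B and T cell list (-0.12). The summed log2 level ran from 5.43 to 5.94 in Conv + OM(HFD) and 5.62 to 6.06 in Conv + PBS mice for the stellate list, from 4.30 to 5.06 and 4.90 to 5.10 for the endothelial list, from 1.91 to 3.17 and 2.13 to 3.05 for the bile duct list, and from 0.88 to 1.09 and 0.64 to 1.35 for the B and T cell list, in which Cd79a and Cd8a were not above background on any array. All 7 Kupffer cell markers had lower means than in Conv + PBS mice after either transfer, with a median log2 difference of -0.15 in Conv + OM(HFD) and -0.51 in Conv + LM mice and none at a limma p under 0.05. Their summed level ran from 4.57 to 7.10 in Conv + PBS, 4.47 to 5.96 in Conv + OM(HFD) and 4.25 to 4.87 in Conv + LM mice. Against Conv + PBS, 9 of 10 hepatocyte markers had higher means in Conv + OM(HFD) (median 0.07) and 5 of 10 in Conv + LM mice (median -0.00). All 4 measured red blood cell markers had higher means after either transfer (medians 0.17 and 0.25). None of these markers had a limma p under 0.05. Of 5 measured neutrophil markers, 1 (Mmp8, -1.23) passed in Conv + LM vs. Conv + PBS mice, all 5 had lower means there (median -0.93), and 4 of 5 had higher means in Conv + OM(HFD) vs. Conv + PBS mice (median 0.10). The summed neutrophil level was 4.45 in Conv + PBS mouse 1 and 4.35 in Conv + OM(HFD) mouse 25, which were also the highest of their groups in the Kupffer list, and -0.89 to 0.37 in the other 14 mice. All 3 measured adipocyte markers had higher means in Conv + LM (median 0.52) and lower means in Conv + OM(HFD) mice (median -0.26) than in Conv + PBS mice, with none at a limma p under 0.05. Their summed level was 2.89 in Conv + LM mouse 15, -0.26 to 0.53 in the other 4 Conv + LM mice, -0.59 to 0.32 in Conv + PBS and -0.44 to 0.15 in Conv + OM(HFD) mice. The kidney tubule list, with 2 of 5 markers measured, had a summed level of 0.61 in Conv + PBS mouse 5 and -3.09 to -0.47 in the other 15 mice.

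Without Conv + PBS mouse 1, the 5 members called for Conv + OM(HFD) vs. Conv + PBS and the 2 called for Conv + LM vs. Conv + PBS remained. Without Conv + OM(HFD) mouse 25, Gstt2 and Gstm5 remained in the first comparison, and Gstt1, Gstt3 and Sult1b1 (-0.37) no longer passed. Without Conv + LM mouse 15, Gstt2 (-0.47) remained in the second comparison and Gstm5 (-0.20) did not. Without Conv + PBS mouse 5, Gstt2 remained in the second comparison and Gstm5 did not, and Sult1b1 no longer passed in the first. Sult1b1 passed for Conv + OM(HFD) vs. Conv + LM whichever 1 mouse was left out. In that comparison, the stellate cell marker Lrat was also lower (-0.38, limma p = 0.0188, exact permutation p = 0.0238), while 3 of 6 stellate markers had lower and 3 higher means. All 7 Kupffer cell markers (median 0.38) and all 5 measured neutrophil markers (1.13) had higher means in Conv + OM(HFD) mice, and all 3 measured adipocyte markers (-1.55) lower ones, with none at a limma p under 0.05. Of 9 measured clock genes, Per2 was lower (-0.35, limma p = 0.0232, exact permutation p = 0.0635). Sult1b1 also passed with Arntl, set relative to its group mean, as a covariate, which could not change the log2 difference. All 8 genes of a fasting list had higher means (median 0.26), with none at a limma p under 0.05, against 5 of 8 for Conv + OM(HFD) and 3 of 8 for Conv + LM when set against Conv + PBS. The part of these cell types and states in the differences of the conjugation genes was not tested.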

How the data were processed

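Each mouse liver gave 1 one-colour Agilent SurePrint G3 array. The deposited scanner files hold spot intensity, which the authors obtained with Agilent Feature Extraction 10.10.1.1 (named, with limma, in the submitters' processing notes) and which is background-subtracted. The authors' deposited value table holds log2 values, which matched the log2 of quantile-normalized median spot intensity, with column medians of 5.49 to 5.52. It served as an alternative. Positions of probes came from the array's own annotation (mm9). Outlier spots were left out, and log2 of the 75th percentile of the non-control spots was subtracted from each array. A probe was kept if well above background on at least 5 of 16 arrays (30659 probes), and the kept probe with the highest mean stood for its gene (20400 genes). Groups came from the sample labels. The 3 groups were compared in 1 fit with limma 3.58.1 (lmFit and eBayes, two-sided, Benjamini-Hochberg over all genes) in R 4.3.3, and single genes with two-sided exact permutation tests (scipy 1.17.1), whose smallest p is 0.00216 for 5 against 6 mice and 0.00794 for 5 against 5. Relations used 100000 permutations. Genes were named by rule: members at an unadjusted p under 0.05, those with the widest and narrowest spread of each group of classes, a set list of well-known members whatever their values, members not measured or with probes of opposite sign, and listed pathway genes and markers at an unadjusted p under 0.05. Gstm7, Gstp2, Sult1c1, Ugt2a1, Ugt2a3, Ugt2b37 and Ugt2b38 and the neighbours of the theta genes were named outside this rule, after their values were seen. The scripts were tested on simulated data. The members and lists were chosen with earlier results of these data known. Alternatives were normexp background correction (offset 50), quantile normalization, other probe filters, the mean of all probes, the slide as a block, 2-group fits, array weights, the methods' t-test and leaving out each mouse. Arntl as a covariate and within-slide differences were added after the data were seen. Precision is limited by the number of arrays. One result among the regulators is not reported here.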

Additional observations from a re-analysis of the deposited data

Results flagged for a closer look

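In 102 groups of mice examined for 34 genes, 6 had a mouse far from the others of its group by Dixon's criterion, and chance alone marks about 1 in 20 groups. Conv + PBS mouse 4 was low in Gstt3 (3.08 against a group median of 3.53) and high in Gstz1 (7.54 against 7.30). Sult1e1 was high in Conv + PBS mouse 5 (-1.71 against -2.60) and low in Conv + LM mouse 13 (-2.88 against -2.31). Sult2a8 was low in Conv + OM(HFD) mouse 25 (6.70 against 7.15), and Ugt2b36 was low in Conv + LM mouse 13 (6.04 against 6.33).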

How the results depend on the processing

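The number of members at an unadjusted p under 0.05 depended on the processing, and the share of all genes that passed under the same setting stands in brackets. For Conv + OM(HFD) vs. Conv + PBS (5), it was 3 with the mean of all probes (3.25%), 8 with only the mice of both groups (3.11%), 8 with array weights (4.38%), 9 with the methods' t-test (3.11%), and 2 to 6 when 1 mouse was left out (2.79 to 4.24%), with 2 without Conv + OM(HFD) mouse 28 (3.31%). For Conv + LM vs. Conv + PBS (2), it was 1 with the mean of all probes (3.96%), 4 with array weights (4.00%), and 1 to 4 when 1 mouse was left out (3.40 to 5.02%), with 1 without Conv + PBS mouse 5 (3.75%) and 4 without Conv + LM mouse 14 (3.40%). For Conv + OM(HFD) vs. Conv + LM (1), it was 2 with normexp (2.69%), 3 with the authors' values (2.71%), 3 with the slide as a block (4.30%), 4 with array weights (3.12%), 2 with Arntl as a covariate, added after the data were seen (3.78%), and 1 to 4 when 1 mouse was left out (2.39 to 3.93%), with 4 without Conv + OM(HFD) mouse 25 (3.49%). The relation of UGT and SULT means (-0.15) turned to 0.13 with deviations from slide and group means and to 0.00369 without the 2 mice farthest from the median, and ranged from -0.34 to 0.03 when 1 mouse was left out, with 0.00881 without Conv + PBS mouse 4 and 0.0257 without Conv + OM(HFD) mouse 29. The cause was not tested. For the 8 gene differences that passed and the median differences of the UGT, GST, SULT and theta genes, 544 alternative values kept direction and side of the threshold, 24 no longer passed (15 of them Sult1b1 for Conv + OM(HFD) vs. Conv + PBS) and 0 reversed. In several of these settings the direction was fixed beforehand. Another test, a 2-group fit, Arntl as a covariate or leaving out a mouse of the third group cannot change a log2 difference. The median differences carry no p-value. No paired analysis was possible because mouse numbers do not recur across groups.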
